A study of Mus musculus with 18 samples.

Results

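tRNA fragments of Ftsj1 knockout (KO) mouse brain were compared with those of wild-type (WT) brain at the level of single isodecoders, which are tRNAs that share an anticodon but differ elsewhere in sequence. The deposited table listed 147 tRNAs in 54 anticodon families, and 81 of the tRNAs had a mean of 10 or more reads over the 6 fragment libraries and were tested. The 66 others together supplied 0.0221% to 0.0327% of the fragment reads of a library, and 33 of these had no fragment read at all. The cut fell in a gap: the members just inside were Ala32-TGC (mean 15.7 reads), Gln9-TTG (17.8) and Lys23-TTT (25.3), and those just outside were Pro7-TGG (2.67), Cys13-GCA (2.50) and Val7-CAC (2.33).

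The fragment libraries came from brains of 3 Ftsj1 KO and 3 WT male C57BL/6 mice aged 8 weeks, 1 library a mouse, out of 18 libraries in the series. Fragments and full-length tRNA were cut as separate bands from gels of the same brain RNA. All RNA was treated with AlkB, a bacterial demethylase that removes base methyl groups able to stop reverse transcription. The KO fragment libraries held 151056, 94823 and 149028 reads, and the WT libraries 113832, 85323 and 104042. Libraries of 1 genotype differed by more than sampling noise (chi-square per degree of freedom of 4.20 to 6.29 between KO and 4 to 10.9 between WT fragment libraries). The knockout allele is not described in the sources used here, and tRNA libraries measure neither Ftsj1 mRNA nor markers of brain cells, so neither was checked. Read ends, fragment lengths and the rule for reads shared by similar tRNAs are not given either. The counts therefore do not show which end of a tRNA a fragment covers, and reads of closely similar isodecoders cannot be told apart from one another with certainty.

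FTSJ1 is an enzyme that places a methyl group on the ribose of anticodon loop nucleotides, working with the partner proteins THADA and WDR6. Its best characterised targets in mammals are the phenylalanine and tryptophan tRNAs, with leucine tRNAs among others reported. tRNA fragments arise when nucleases, of which angiogenin is the best known, cut tRNA in or near its anticodon loop. Such fragments are also found in normal brain.

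Fragments of the phenylalanine isodecoder Phe2-GAA and the tryptophan isodecoder Trp1-CCA had the largest rises in KO brain, 4.22-fold and 2.31-fold. Smaller rises were found for 1 alanine, 1 asparagine, 1 proline and 2 cysteine isodecoders, and both tested Gln-CTG isodecoders and the serine isodecoder Ser1-AGA fell. In all, 7 of 81 isodecoders rose (8.64%) and 3 fell (3.7%), which is 12.3% of those tested (edgeR's quasi-likelihood test, adjusted p under 0.05 after Benjamini-Hochberg adjustment). The log2 fold changes of the others lay between -0.52 and 0.90, and the median over all 81 was -0.0037. The 3 KO and 3 WT shares did not overlap for any of the 10 (two-sided exact permutation p = 0.1 each, the smallest that 3 mice against 3 can give), and they did not overlap for 25 of the 81 tested (30.9%). In whole brain, a change in the cells that make a fragment and a change in its amount per cell cannot be told apart. Leaving out WT mouse 3 raised the count to 18, and leaving out any other mouse gave 8 to 10.

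**Figure D1:**
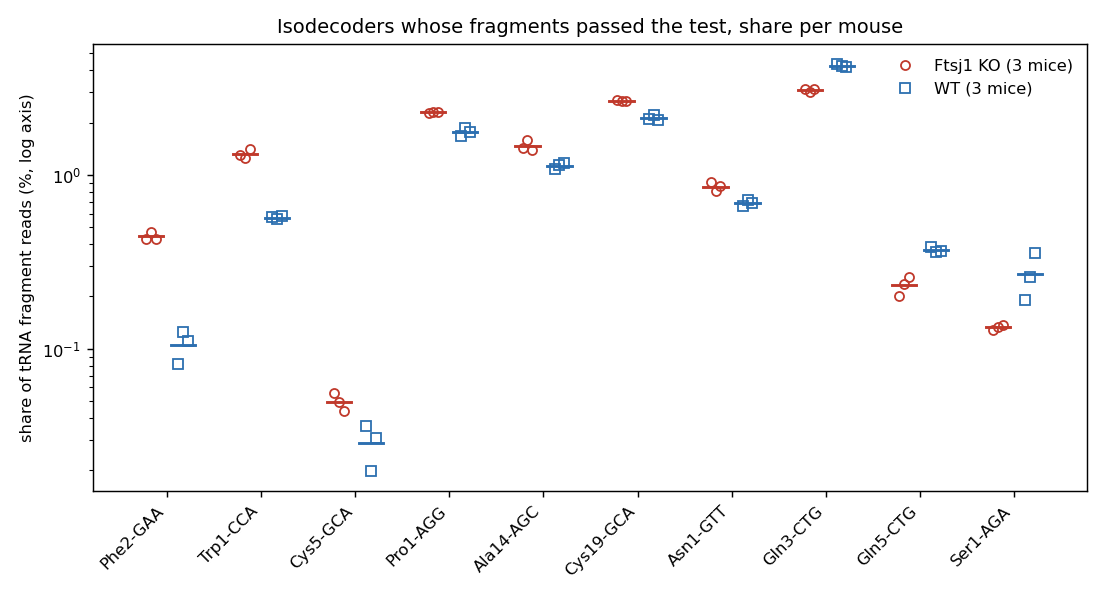
Share of tRNA fragment reads (percent, log axis) of the 10 isodecoders that passed, with each KO mouse as a circle on the left, each WT mouse as a square on the right, and a line at the mean of 3 mice. The KO points lie above the WT points for 7 isodecoders and below them for Gln3-CTG, Gln5-CTG and Ser1-AGA, with no overlap.

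Phe2-GAA was the one phenylalanine tRNA listed. It had 650, 448 and 635 fragment reads in KO mice 1, 2 and 3, against 93, 106 and 115 in WT mice 1, 2 and 3. These reads made up 0.443% ± 0.0256 of fragment reads in KO and 0.105% ± 0.0217 in WT mice (SD, n = 3 each). Every KO library stood well above every WT library. The log2 fold change was 2.08 (SE 0.14, edgeR adjusted p = 5.72e-07). All of the rise in phenylalanine fragments was thus counted on a single sequence.

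Trp1-CCA, likewise the only tryptophan tRNA listed, had 1956, 1193 and 2089 reads in KO and 651, 473 and 604 in WT mice. Its share was 1.32% ± 0.0746 in KO and 0.569% ± 0.0133 in WT mice (SD, n = 3 each). The lowest KO share was 1.26% and the highest WT share 0.581%. The log2 fold change was 1.21 (SE 0.07, edgeR adjusted p = 1.99e-07). In the list of FTSJ1 wobble targets, which is Phe-GAA, Trp-CCA, Leu-CAA and Leu-TAA, these 2 of 4 tested isodecoders rose and none fell, against 8.64% higher and 3.7% lower over all 81.

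The leucine isodecoders of that list did not pass. Leu3-CAA had 662, 390 and 684 reads in KO and 477, 309 and 376 in WT mice, with overlapping shares and a log2 fold change of 0.19 (SE 0.09, edgeR adjusted p = 0.192). Leu6-TAA was scarce, with 40 to 66 reads in KO and 33 to 56 in WT libraries, and its log2 fold change was -0.01 (SE 0.19). At that depth a modest change in Leu6-TAA was not detectable. Over the 4 the median was 0.70 on the log2 scale, against -0.0037 over all 81. That median is the midpoint of Trp1-CCA (1.21) and Leu3-CAA (0.19), and does not show a shift of the whole list.

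Cysteine fragments were counted on 4 tested isodecoders, and 2 of them rose. Cys19-GCA, the leading one, had 4056, 2523 and 3987 reads in KO and 2378, 1890 and 2161 in WT mice. Its share was 2.67% ± 0.0123 in KO and 2.13% ± 0.0765 in WT mice (SD, n = 3 each), with a log2 fold change of 0.33 (SE 0.05, edgeR adjusted p = 0.000925). Cys5-GCA was far scarcer, with 84, 47 and 65 reads in KO and 41, 17 and 32 in WT mice. Its log2 fold change was larger and less certain, 0.75 (SE 0.22, edgeR adjusted p = 0.0439), and its call was lost on leaving out any 1 of the KO mice or WT mouse 2 (adjusted p = 0.0776 to 0.165). Of the other two, Cys20-GCA had 317, 190 and 288 reads in KO and 166, 147 and 152 in WT mice, and Cys6-GCA had 78, 60 and 101 in KO and 56, 42 and 42 in WT mice. Cys20-GCA (0.38, SE 0.12, edgeR adjusted p = 0.0598) and Cys6-GCA (0.39, SE 0.18, edgeR adjusted p = 0.176) had positive values that did not pass.

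Alanine fragments with the anticodon AGC, read with a wobble inosine, came mainly from Ala14-AGC. It had 2149, 1502 and 2072 reads in KO and 1232, 977 and 1219 in WT mice. The share was 1.47% ± 0.104 in KO and 1.13% ± 0.0459 in WT mice (SD, n = 3 each). Its log2 fold change was 0.37 (SE 0.07, edgeR adjusted p = 0.0031). The minor isodecoder Ala12-AGC had 362, 296 and 415 reads in KO and 259, 237 and 246 in WT mice. Ala12-AGC (0.16, SE 0.13) and Ala1-AGC (0.44, SE 0.20) did not pass, the second with only 41 to 54 reads in KO and 26 to 28 in WT libraries. The remaining 9 of the 12 Ala-AGC entries were too scarce to test.

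Proline and asparagine fragments each rose on the only isodecoder that could be tested. Of 3 Pro-AGG entries 1 had enough reads, and Asn-GTT had 1 entry. Pro1-AGG, a proline tRNA with wobble inosine, had 3437, 2188 and 3429 reads in KO and 1908, 1595 and 1843 in WT mice. Its share was 2.29% ± 0.0170 in KO and 1.77% ± 0.0966 in WT mice (SD, n = 3 each). The log2 fold change was 0.37 (SE 0.06, edgeR adjusted p = 0.000925). Asn1-GTT, an asparagine tRNA that carries queuosine at the wobble base, had 1370, 767 and 1279 reads in KO and 750, 613 and 715 in WT mice. These were 0.858% ± 0.0490 of reads in KO and 0.688% ± 0.0298 in WT mice (SD, n = 3 each). Its log2 fold change was 0.32 (SE 0.08, edgeR adjusted p = 0.0171). The call was lost on leaving out KO mouse 1 or 3 or WT mouse 1 (adjusted p = 0.0532 to 0.111).

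Glutamine fragments with the anticodon CTG fell on both isodecoders tested. Gln3-CTG had 4687, 2852 and 4625 reads in KO and 4928, 3590 and 4347 in WT mice, which were 3.07% ± 0.0551 of reads in KO and 4.24% ± 0.0801 in WT mice (SD, n = 3 each). The read numbers overlapped between the genotypes, whereas the shares, which allow for library size, did not. Its log2 fold change was -0.47 (SE 0.05, edgeR adjusted p = 2.21e-05). Gln5-CTG had 305, 223 and 387 reads in KO and 436, 309 and 382 in WT mice. Its share was 0.232% ± 0.0290 in KO and 0.371% ± 0.0109 in WT mice (SD, n = 3 each), with a log2 fold change of -0.68 (SE 0.11, edgeR adjusted p = 0.000925).

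Ser1-AGA, a serine tRNA with a long variable arm and a wobble inosine, had 195, 126 and 205 reads in KO and 217, 221 and 369 in WT mice. The KO shares were nearly equal, 0.129% to 0.138%, while the WT shares ran between 0.191% and 0.355%. The log2 fold change was -1.01 (SE 0.20, edgeR adjusted p = 0.00389). Without WT mouse 3, the mouse with the highest share, it was -0.73, and leaving out KO mouse 2 or 3 ended the call (adjusted p = 0.0568 and 0.058).

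**Figure D2:**
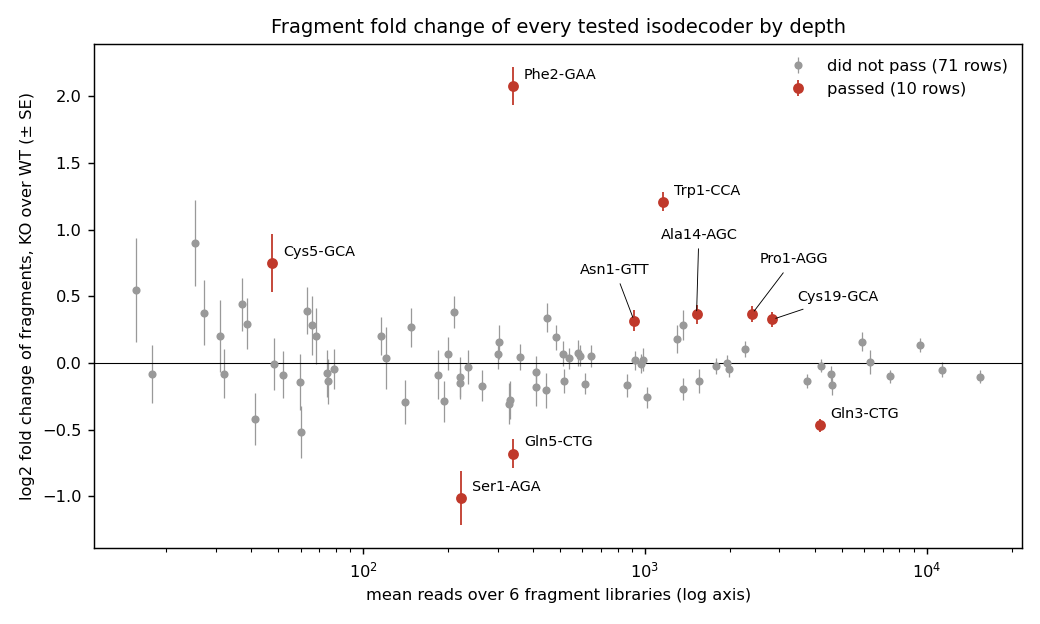
Log2 fold change of fragments, KO over WT, with its SE, against mean reads over 6 fragment libraries (log axis), for the 81 tested isodecoders; red points passed. Error bars shorten to the right, and Phe2-GAA at 2.08 and Trp1-CCA at 1.21 stand apart from points of like depth.

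Deeply read isodecoders had the smaller errors. The median SE was 0.20 for the 20 isodecoders with a mean under 100 reads, 0.11 for the 37 with 100 to 1000, and 0.06 for the 24 with 1000 or more. Of the 10 that passed, 1, 4 and 5 belonged to these classes. Scarce isodecoders with sizeable values that did not pass were Lys23-TTT (0.90, SE 0.32, 22 to 48 reads in KO and 9 to 24 in WT libraries), Ala32-TGC (0.55, SE 0.39) and Ser6-CGA (-0.52, SE 0.20), with edgeR adjusted p = 0.1, 0.347 and 0.115. Gln9-TTG, near the lower limit of reads, was at -0.08 (SE 0.22).

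Whether single isodecoders or whole anticodon families moved was examined next. Summed to families, 12 of 46 passed (26.1%), 9 higher (19.6%) and 3 lower (6.52%) in KO. In 8 of these 12 at least 1 isodecoder also passed, and 7 of the 12 held only 1 tested isodecoder, so family and isodecoder are there the same measurement. The 4 families with no isodecoder past the threshold were Arg-CCG, Thr-CGT, Arg-CCT and Gly-ACC. Fitted as families, they had log2 fold changes of 0.23 (SE 0.08), 0.22 (SE 0.07), 0.16 (SE 0.06) and -0.25 (SE 0.09), with edgeR adjusted p = 0.0272, 0.0197, 0.0317 and 0.0317. Arg-CCT and Gly-ACC each held 1 tested isodecoder with 100% of the family's fragment reads, so nothing was added by summing. Their calls came from the same reads, fitted among 46 families in place of 81 isodecoders. They do not show a family moving beyond its isodecoder. In Arg-CCG, the isodecoder Arg4-CCG had 633, 436 and 614 reads in KO and 352, 280 and 391 in WT mice and was at 0.34 (SE 0.11, edgeR adjusted p = 0.0545). The next values are of isodecoders named after they were seen. They are Arg6-CCG (0.18, SE 0.11), Thr9-CGT (0.29, SE 0.11), Thr11-CGT (0.06, SE 0.08), Arg7-CCT (0.16, SE 0.07) and Gly1-ACC (-0.26, SE 0.08).

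The division of fragment reads within a family was compared next. Cys19-GCA gave 89.4% ± 0.215 of Cys-GCA fragments in KO and 90.2% ± 0.197 in WT mice (SD, n = 3 each; exact permutation p = 0.1). Gln3-CTG gave 93.0% ± 0.829 of Gln-CTG fragments in KO and 92.0% ± 0.113 in WT mice, and Ala14-AGC 82.3% ± 1.37 of Ala-AGC fragments in KO and 80.3% ± 1.56 in WT mice (exact permutation p = 0.1 for each). Cys5-GCA gave 1.66% ± 0.194 of Cys-GCA fragments in KO and 1.23% ± 0.382 in WT mice, with overlap. In the 22 families with 2 or more tested isodecoders, every member's log2 fold change had the same sign in 13. With so few members a family, signs also match by chance, and the number to expect was not worked out.

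No isodecoder of 57 (0%), and no family of 22 (0%), passed edgeR's test for unequal KO effects within a family (diffSpliceDGE), at an unadjusted p under 0.05 for 2 isodecoders and 1 family. A second tool, limma's diffSplice, chosen after seeing the data, also passed none, with 3 isodecoders and 1 family under that unadjusted limit. The isodecoder farthest from its family was Lys23-TTT, 0.53 above it on the natural log scale (SE 0.20 on that scale, edgeR adjusted p = 0.77). It made up 0.314% ± 0.0593 of Lys-TTT fragments in KO and 0.187% ± 0.0939 in WT mice. Without WT mouse 3 the counts became 1 isodecoder, Lys23-TTT, and 2 families, Lys-TTT and Thr-CGT. A missed threshold does not show that isodecoders of a family moved alike.

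**Figure D3:**
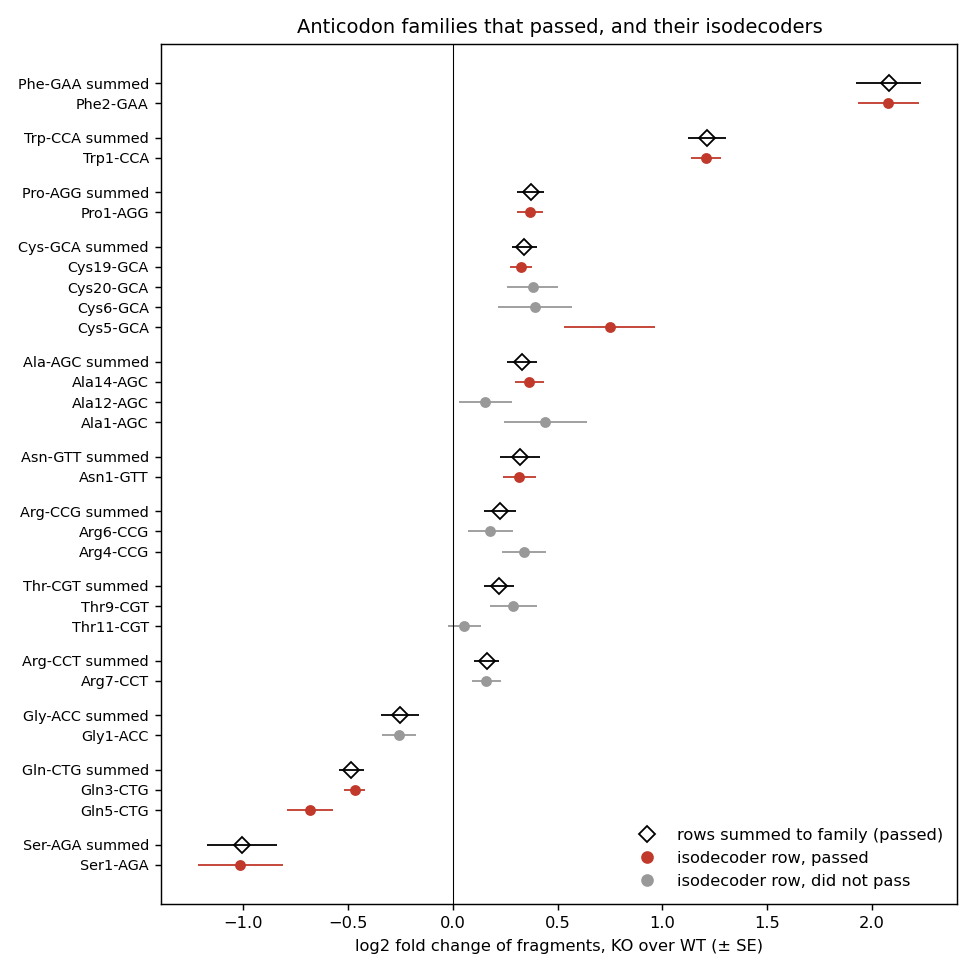
Log2 fold change of fragments, KO over WT, with its SE, for the 12 anticodon families that passed (open diamonds, isodecoders summed) and for each tested isodecoder in them (red, passed; grey, did not pass). In Cys-GCA, Ala-AGC and Gln-CTG the members lie on the same side of 0 as their family.

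The shares also show which isodecoders took up more or less of the fragment reads in KO brain. Gains and losses here are shifts within a fixed total, not amounts of fragments. Over all 147 listed tRNAs, tested or not, mean shares were higher in KO for 59, by 5.16 percentage points in all. They were lower for 55 by the same amount, since shares sum to a fixed total, and 33 had no fragment read. The 7 isodecoders that rose supplied 2.68 points, or 51.9% of the gain. The gain sums every higher mean share, whether it passed or not, so spread between mice adds to it. Trp1-CCA supplied 0.749 points (SE 0.0438), Cys19-GCA 0.547 (SE 0.0447), Pro1-AGG 0.522 (SE 0.0566) and Phe2-GAA 0.337 (SE 0.0194). Among the 7, Phe2-GAA, with the largest fold change, came behind Trp1-CCA, Cys19-GCA and Pro1-AGG in points gained.

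The largest single gain belonged to Lys19-TTT, one of the 3 isodecoders with the most fragment reads, at 0.792 points (SE 0.188). Its share was 8.53% ± 0.202 in KO and 7.73% ± 0.255 in WT mice, and its log2 fold change of 0.14 (SE 0.05) did not pass (edgeR adjusted p = 0.115). Arg7-CCT, named after its values were seen, had the third largest gain, 0.577 points (SE 0.248), ahead of Cys19-GCA, Pro1-AGG and Phe2-GAA, and did not pass either (edgeR adjusted p = 0.16). Without WT mouse 3 both Lys19-TTT and Arg7-CCT passed. The 3 isodecoders that fell gave up 1.44 points, 27.9% of the loss, of which Gln3-CTG accounted for 1.17 (SE 0.0561). Glu1-CTC, the most abundant fragment source, lost 0.907 points (SE 0.317), with 12.9% ± 0.478 of reads in KO and 13.8% ± 0.269 in WT mice, and did not pass (-0.10, SE 0.05, edgeR adjusted p = 0.176). Asp1-GTC held 9.56% ± 0.446 in KO and 9.86% ± 0.275 in WT mice and did not pass either (-0.05, SE 0.06). The supply was otherwise alike: the 10 leading isodecoders gave 62.2% of fragment reads in KO and 64.3% in WT mice, and 7 were enough to reach 50% in both.

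**Figure D4:**
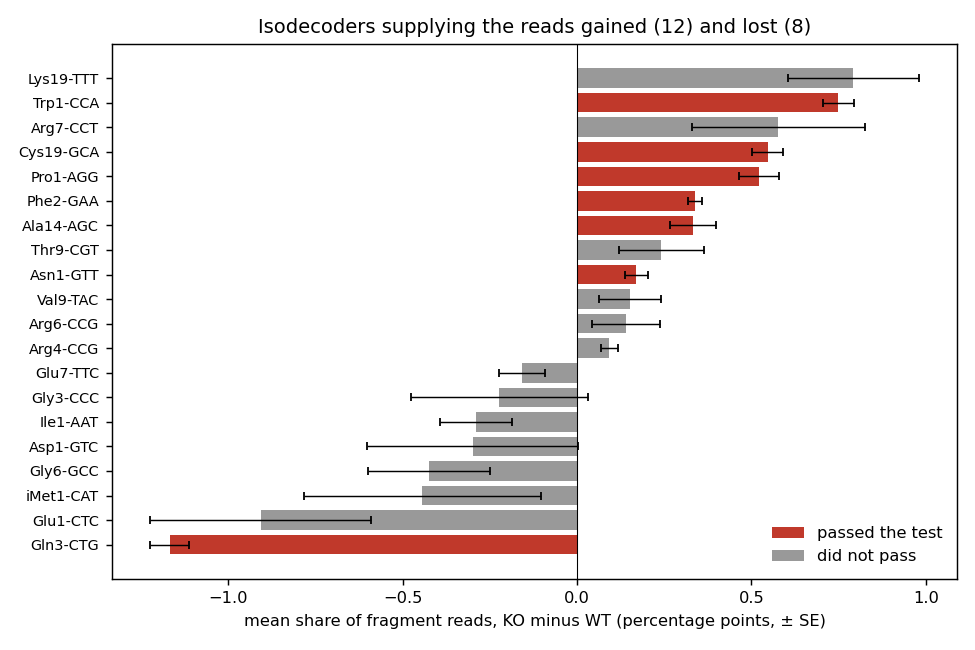
Difference in mean share of fragment reads, KO minus WT, in percentage points with its SE, for the 12 isodecoders with the largest gain and the 8 with the largest loss; red bars passed the test. Lys19-TTT and Trp1-CCA gained most and Gln3-CTG lost most.

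tRNA from the full-size gel band of the same mice, called full-length tRNA here, was then set beside the fragments, for the 80 isodecoders that also had a mean of 10 or more reads in the total tRNA libraries (Gly11-GCC did not). Those libraries held 1505291 to 2000422 reads. Of the 80 isodecoders 8 differed in full-length tRNA (10%), 5 higher (6.25%) and 3 lower (3.75%) in KO. Leaving out KO mouse 2 gave 2 calls, WT mouse 2 gave 3 and KO mouse 1 gave 13. Scaling by total reads gave 11 higher and 2 lower, and DESeq2 size factors 4 of each. The difference between the KO effect on fragments and that on full-length tRNA passed for 15 of 80 (18.8%), 7 in favour of fragments (8.75%) and 8 against (10%). With the mouse as a block the count was 9, and it was also 9 without KO mouse 2 or WT mouse 1. TMM factors over all 12 libraries gave 7 and 4.

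For both leading FTSJ1 targets, fragments rose while the full-length tRNA fell. Full-length Phe2-GAA had 23500, 16695 and 18396 reads in KO and 38404, 41895 and 38635 in WT mice, a log2 fold change of -1.30 (SE 0.07, edgeR adjusted p = 4.63e-12). The ratio of its fragment share to its full-length share was 0.366, 0.430 and 0.431 in KO mice 1, 2 and 3, and 0.0320, 0.0456 and 0.0446 in WT mice 1, 2 and 3. Each KO mouse was thus far above each WT mouse. For Trp1-CCA the ratio was 0.976 ± 0.119 in KO and 0.369 ± 0.0204 in WT mice (SD, n = 3 each), and the full-length log2 fold change was -0.24 (SE 0.07, edgeR adjusted p = 0.0328). That last call was lost on leaving out KO mouse 2 or 3 or WT mouse 1 or 3 (adjusted p = 0.0528 to 0.161), and with total reads as the scale.

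Ala14-AGC had the same opposite pattern, with full-length tRNA at -0.29 (SE 0.06, edgeR adjusted p = 0.00424). Its ratio of shares was 1.59 ± 0.0818 in KO and 1.05 ± 0.0831 in WT mice (SD, n = 3 each). Gln5-CTG went the other way: its full-length tRNA, with 362, 266 and 251 reads in KO and 169, 164 and 180 in WT mice, was higher by 0.50 (SE 0.15, edgeR adjusted p = 0.0328). That call was lost on leaving out KO mouse 1 or 2 or WT mouse 2 (edgeR adjusted p = 0.0910 to 0.225). It was also lost with limma-voom and with all tRNAs that had a read. Gln5-CTG thus had a fragment to full-length ratio of 14.6 ± 4.17 in KO and 33.3 ± 1.28 in WT mice. Gln3-CTG, the main Gln-CTG isodecoder, had a ratio of 2.34 ± 0.138 in KO and 3.22 ± 0.124 in WT mice, with full-length tRNA at -0.05 (SE 0.06).

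Asn1-GTT (-0.10, SE 0.07) and Ser1-AGA (-0.07, SE 0.08) did not pass in full-length tRNA, nor did Pro1-AGG (0.01, SE 0.07), Cys19-GCA (0.04, SE 0.07) and Cys5-GCA (0.44, SE 0.26). Arg4-CCG had a positive difference between fragments and full-length tRNA of 0.49 (SE 0.12, edgeR adjusted p = 0.00755), although neither form passed alone. Gly13-TCC and Asp3-GTC were rare as full-length tRNA, with 118 to 182 and 117 to 158 reads in KO and 51 to 84 and 56 to 79 in WT libraries. Their fragments were at 0.05 (SE 0.10) and 0.07 (SE 0.10), and their differences of -0.79 (SE 0.23, edgeR adjusted p = 0.0299) and -0.63 (SE 0.21, edgeR adjusted p = 0.0443) came with full-length values of 0.81 (SE 0.24) and 0.67 (SE 0.22). With the mouse as a block these 2 (adjusted p = 0.0777 and 0.124), Ser6-CGA (0.0594) and Cys19-GCA (0.059) no longer passed.

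**Figure D5:**
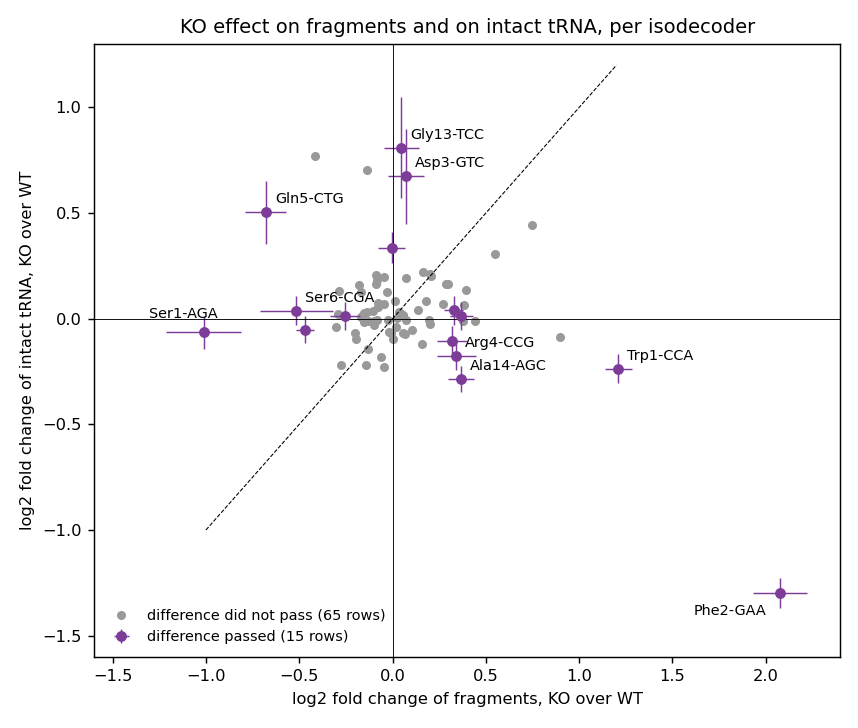
Log2 fold change, KO over WT, of fragments (horizontal) and of full-length tRNA (vertical) for 80 isodecoders. Purple points, with SE bars, are the 15 whose 2 effects differed in the main fit, without the mouse as a block. The dashed line marks equal effects. Phe2-GAA, Trp1-CCA and Ala14-AGC lie right of 0 and below it, and Gln5-CTG lies left of 0 and above it.

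The isodecoders were also grouped by what is known of their modification, and each count is read against the 8.64% of all 81 that were higher, the 3.7% that were lower and the median log2 fold change of -0.0037. The wider FTSJ1 list, which adds Arg-TCG, Arg-CCG, Gln-CTG, Gly-CCC and Cys-GCA, had 4 of 17 isodecoders higher (23.5%) and 2 lower (11.8%), with a median of 0.18. Those higher were Phe2-GAA, Trp1-CCA, Cys19-GCA and Cys5-GCA, and those lower were Gln3-CTG and Gln5-CTG. Phe2-GAA and Trp1-CCA were already counted in the list of wobble targets, which the wider list contains. The calls it added came from Cys-GCA, both higher, and Gln-CTG, both lower. Reads of isodecoders of 1 family may be shared, and the lists were chosen with earlier results of these data known. The wider list is therefore no separate result beside the isodecoders already named.

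Of 13 isodecoders with a wobble inosine 2 were higher (15.4%), Ala14-AGC and Pro1-AGG, and 1 was lower (7.69%), Ser1-AGA, with a median of 0.04. Of 13 with a long variable arm 1 was lower (7.69%, against 3.7% over all 81), again Ser1-AGA, with a median of -0.03. Of 6 with queuosine 1 was higher (16.7%, against 8.64% over all 81), Asn1-GTT, with a median of -0.09. With 1 or 2 calls a direction, these 3 lists cannot be told apart from the share over all isodecoders.

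Of 20 isodecoders from families known to be cut often in the anticodon loop, among them the abundant Glu1-CTC, Asp1-GTC and Lys19-TTT, none passed edgeR's test, against 12.3% over all 81, and the median was -0.06. A list of 20 is too small to tell this apart from the share over all isodecoders. An unadjusted p under 0.05 was reached by 3 of the 20, and neither DESeq2 nor limma-voom called any. Leaving out WT mouse 3 brought calls of Lys19-TTT and Lys23-TTT, and leaving out KO mouse 3 a call of Glu1-CTC.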

How the data were processed

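The authors deposited a table of counts, which per the file headers are read numbers for each tRNA and library. Bowtie2 appears in the submitters' processing notes. Its settings, its version, the build and the tRNA reference were not given in the sources used here. The 6 fragment and 6 total tRNA columns were used, and 6 ribosome-contained columns were not. Each entry was taken as 1 isodecoder, and its name joins the table's tRNA number and anticodon. PCR copies were not marked, so errors cover the spread between mice and counting. Without a spike-in, all values are relative within a library.

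The quasi-likelihood test of edgeR 4.0.16 was run in R 4.3.3 (TMM factors within each library type, 0.981 to 1.02 for fragments, a mean of at least 10 reads, Benjamini-Hochberg adjustment over all tRNAs tested, threshold 0.05). The KO effect was fitted in 6 libraries, and the difference between fragments and total tRNA as an interaction in 12. The common coefficient of biological variation came to 0.0768 in fragments, 0.0678 in total tRNA and 0.0701 in the interaction. The SE is the absolute log2 fold change over the square root of F. Fits with DESeq2 1.42.0 and limma 3.58.1 were alternatives. The fits were tested on simulated data. Shares use all tRNA reads of a library. NumPy 2.4.6, pandas 2.3.3 and matplotlib 3.10.9 were used in Python 3.11.15.

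The KO and WT mice share numbers but are different animals, so no block was used in the main fits within a library type. Deviations of same-numbered fragment libraries correlated at -0.211, -0.354 and -0.14. Fragment and total libraries of a mouse come from 1 animal, per the labels, and the mouse as a block was an alternative there (correlations of -0.188 to 0.132). The tRNAs and lists were chosen with earlier results of these data known. Named are the FTSJ1 wobble targets, all that passed among fragments with their tested family members, up to 5 a direction from the usage test and the interaction, the 3 on each side of the read limit and the 3 most abundant.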

Additional observations from a re-analysis of the deposited data

Results flagged for a closer look

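From both ends of the interaction test, 10 isodecoders were taken whose KO effect on fragments differed from that on full-length tRNA in the main fit. That fit did not pair the 2 libraries of a mouse. With the mouse as a block, Gly13-TCC, Asp3-GTC and Ser6-CGA did not pass (edgeR adjusted p = 0.0777, 0.124 and 0.0594). Arg4-CCG was then barely under the threshold (edgeR adjusted p = 0.049994). The difference was positive for Phe2-GAA (3.35 on the log2 scale, SE 0.15), Trp1-CCA (1.42, SE 0.10), Ala14-AGC (0.63, SE 0.09), Arg4-CCG (0.49, SE 0.12) and Asn1-GTT (0.40, SE 0.09). It was negative for Gln5-CTG (-1.21, SE 0.16), Ser1-AGA (-0.97, SE 0.21), Gly13-TCC (-0.79, SE 0.23), Asp3-GTC (-0.63, SE 0.21) and Ser6-CGA (-0.58, SE 0.19). Phe2-GAA, Trp1-CCA, Ala14-AGC, Asn1-GTT, Gln5-CTG and Ser1-AGA were called in all 14 alternative settings, Arg4-CCG in 13, Gly13-TCC and Asp3-GTC in 5 each and Ser6-CGA in 3.

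Among the 66 tRNAs too scarce to test, of which 33 had a fragment read, 3 had more fragment reads in each KO library than in any WT library. Only this direction was searched. Among the 81 tested, shares did not overlap for 30.9%, counting both directions. The reads given here were not scaled to library size, and the libraries of KO mice 1 and 3 were deeper than any WT library. Cys13-GCA had 5, 4 and 5 reads (14 in all) in KO and 0, 0 and 1 in WT mice. Pro3-AGG had 3, 2 and 3 (8 in all) in KO and 0 in each WT mouse. Lys22-TTT had 3, 3 and 2 (8 in all) in KO and 1 in each WT mouse.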

How the results depend on the processing

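Of the 10 fragment calls, Phe2-GAA, Trp1-CCA, Cys19-GCA, Pro1-AGG, Ala14-AGC, Gln3-CTG and Gln5-CTG held in all 13 alternatives, Ser1-AGA in 11, Asn1-GTT in 9 and Cys5-GCA in 7. The count of 10 ran between 8 and 18 without 1 mouse. It was 8 with the replicate number as a block, which ended the calls of Asn1-GTT and Cys5-GCA (edgeR adjusted p = 0.0794 each). That number joins KO and WT mice that are different animals. With all tRNAs that had a read, Cys13-GCA was an added call. The count of 8 in full-length tRNA was 13 with total reads, 17 with all tRNAs that had a read, 18 with filterByExpr (minimum count 10) and 2 to 13 without 1 mouse; with the block it was 10. The interaction count of 15 was 9 with all tRNAs that had a read, and 9 with the mouse itself as a block. It was 9 of 46 with families summed and 9 to 15 without 1 mouse. The usage counts of 0 were 0 with the replicate number as a block, and 0 to 1 isodecoders and 0 to 2 families without 1 mouse. The causes were not tested. Fragment libraries were shallower than total libraries, and the larger SEs of scarce isodecoders limit what could be called there. limma's diffSplice was chosen after seeing the data.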
